A study of Macaca fascicularis with 16 samples.

Results

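The genes described here make cholesterol and fatty acids, or sense and carry sterol. Of 33 genes listed for these pathways, 25 were measured, each by the brightest, on average over the 16 arrays, of the probe sets that the array's annotation assigns to that gene symbol and no other. The other 8 (ACAT2, HMGCS1, GGPS1, LSS, MSMO1, SC5D, SCD and FADS1) were not analysed here. The 25 genes stand among 14132 genes named in the same way, of which 10705 were bright enough to test, and all 25 passed that filter. They fall into 5 of 8 listed genes of the mevalonate and isoprenoid steps, 2 of 3 of the squalene and lanosterol steps, 7 of 9 of the steps from lanosterol to cholesterol, 6 of 6 of sterol sensing and transport, and 5 of 7 of fatty acid synthesis and desaturation.

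The tissue was endometrium of 16 postmenopausal female cynomolgus macaques, randomized to 4 arms of 4 animals and treated for 4 months. The control animals received placebo. The estradiol arm was given a low dose of estradiol in micronized form, 0.25 mg for every 1800 kcal eaten. The tamoxifen arm received tamoxifen, a selective estrogen receptor modulator, at 20 mg for the same energy intake, and the combination arm received both at these doses. Each animal gave 1 array, so the arrays of an arm are separate animals. The arrays carry probes for the rhesus macaque, a related species. All animals share the low ovarian hormone state of menopause, and the labels used here do not say how it came about.

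Cells build cholesterol from acetyl-CoA. The mevalonate pathway yields isoprenoid units, squalene is made from them and closed to lanosterol, and lanosterol is trimmed and reduced to cholesterol. When membrane sterol is low, SCAP escorts the SREBP transcription factors out of the endoplasmic reticulum for cleavage, and SREBP-2 switches on most genes of the route, while INSIG proteins hold SCAP back when sterol is plentiful. SREBP-1 drives fatty acid synthesis more than sterol synthesis. Tamoxifen, apart from its binding to the estrogen receptor, is known to inhibit late sterol enzymes, EBP above all. The arrays measured RNA, not enzyme activity or sterols.

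The values are MAS5 signals in arbitrary units, scaled to the same trimmed mean on all arrays, with medians between 58.7 and 70.3. A difference is given on the scale log2(signal + 4.81), with its standard error (SE) or 95% confidence interval, and a gene is called where limma's adjusted p, over all probe sets tested, is under 0.05. Levels of different genes are not set against each other, since probe sets differ in brightness. Markers of epithelium were present, with 10 of 12 annotated markers past the filter on dim probe sets, as were those of endometrial stroma with 11 of 11. In array estradiol 4 the mean centred log2 value of 9 smooth muscle markers was -3.26, against -0.87 to 0.61 on the other 15 arrays, and tamoxifen 1 was the next lowest at -0.87. Estradiol 3 was the lowest of its arm for 7 markers of dividing cells, at 0.39 against 1.46 to 1.71. The same held for 10 epithelial markers, at -0.25 against -0.047 to 0.95. The log2 ratio of the 3' to the 5' actin probe sets, a measure of RNA integrity and labelling, was 0.92 ± 0.11 (SD, n = 4) in control and 0.57 ± 0.18, 0.52 ± 0.043 and 0.55 ± 0.075 in the estradiol, tamoxifen and combination arms, so that it moved with treatment.

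Estradiol against placebo raised 10 of the 25 genes and lowered 1. The genes that rose span the route: PMVK and MVD of the mevalonate steps, the squalene epoxidase SQLE, the later enzymes CYP51A1, NSDHL and DHCR7, the sterol carrier STARD4, and ACLY, ELOVL6 and FADS2 of fatty acid synthesis. LBR fell. Over all genes tested, 16.5% rose and 13.2% fell in this comparison, against 40% and 4% of the members. The median difference of the members was 0.28, against 0.011 for all genes, and 21 of 25 differences were above 0. The arrays of the arms did not overlap for 6 members that were higher and 1 that was lower with estradiol, where 15.4% and 13% of all genes did so. The whole tissue was measured, so more RNA per cell and more cells of a type that holds the RNA cannot be told apart here or in the results that follow. The calls of MVD, SQLE, CYP51A1, STARD4, ACLY and LBR held whichever single array was left out. The count of higher members was 5 without control 4, 6 without control 1, estradiol 1 or estradiol 2, and 12 without estradiol 3.

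Tamoxifen against placebo raised 3 members, CYP51A1, TM7SF2 and STARD4, and lowered LBR. These are 12% and 4% of the members, against 8.59% higher and 7.64% lower among all genes, so the share of members that rose was near that of the whole array. The median difference was 0.22, against -0.018 for all genes, with 19 of 25 above 0. Arrays did not overlap for 6 members higher and 1 lower, against 11.2% and 11.6% of all genes. LBR alone kept its call whichever array was left out. The count of higher members was 0 without tamoxifen 1 or tamoxifen 3, and 1 without control 4.

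The combination against placebo raised 5 members, MVD, CYP51A1, TM7SF2, NSDHL and STARD4, and lowered LBR. The shares, 20% higher and 4% lower, compare with 10.6% and 9.09% of all genes. The median difference was 0.24, against -0.013 for all genes, with 18 of 25 above 0. Arrays did not overlap for 6 members higher and 1 lower, against 15.2% and 13.9% of all genes. CYP51A1, TM7SF2, STARD4 and LBR kept their calls whichever array was left out, and the count of higher members was 3 without combination 2. All 3 comparisons use the same control arrays. CYP51A1 and STARD4 were called higher and LBR lower in each of them, and 13 of the 25 members were called in none of the 7 comparisons made.

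**Figure D1:**
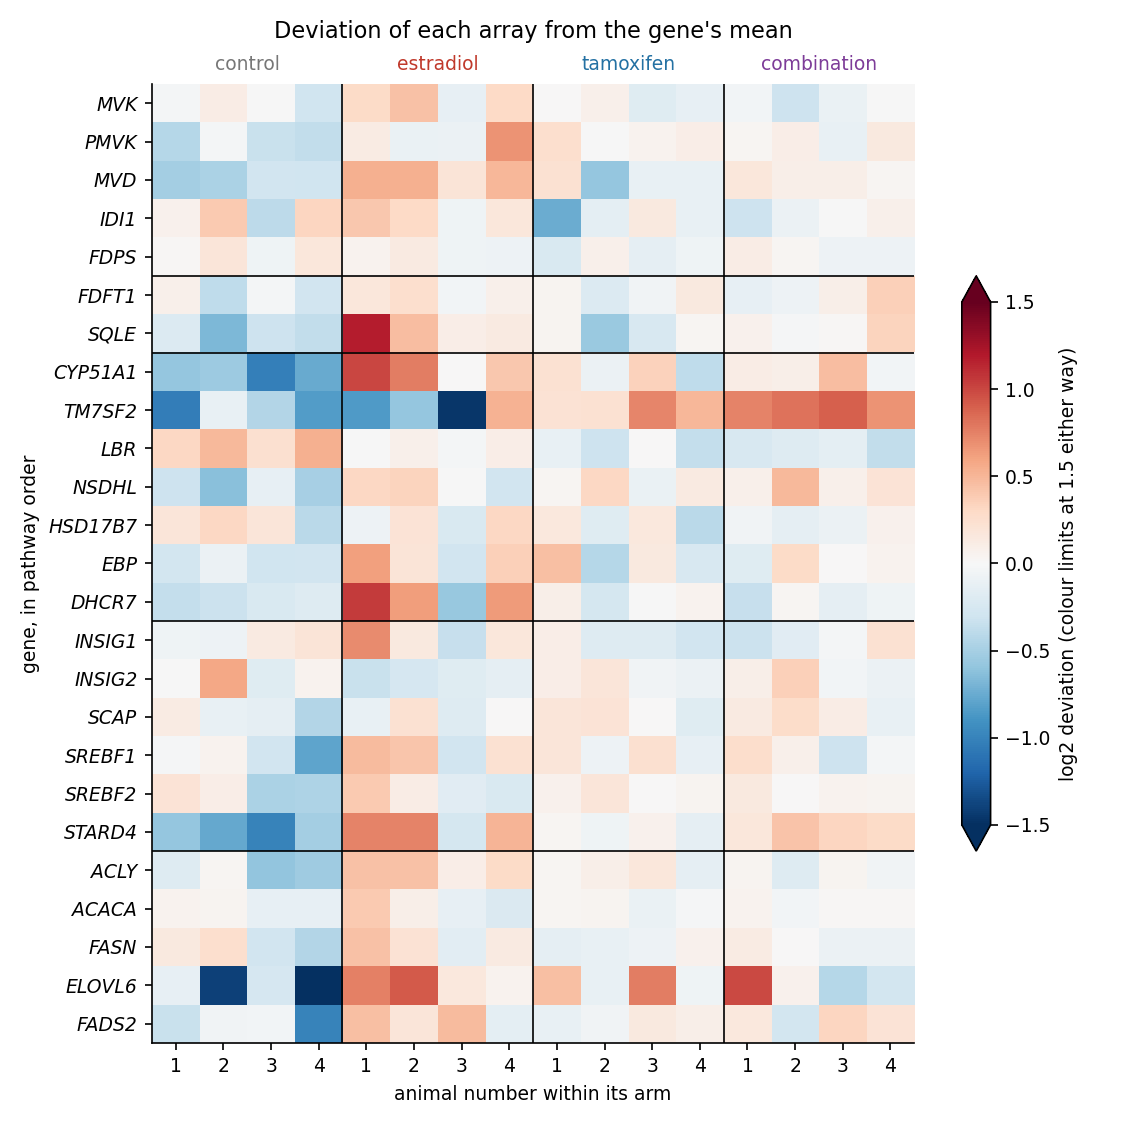
Heat map of the 25 measured genes (rows, in pathway order) on the 16 arrays (columns, by arm), coloured by log2(signal + 4.81) minus the gene's mean over all arrays. CYP51A1 and STARD4 were below their mean on all 4 control arrays, LBR was above its mean there, and TM7SF2 was high in the tamoxifen and combination arms.

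Along the mevalonate steps the estradiol arm held both called genes. MVD, mevalonate diphosphate decarboxylase, makes isopentenyl diphosphate, the isoprenoid unit. Its signal was 131, 135, 154 and 153 in control 1 to 4, 275, 275, 216 and 269 in estradiol 1 to 4, 221, 125, 174 and 174 in tamoxifen 1 to 4, and 212, 201, 201 and 192 in combination 1 to 4. Every estradiol and combination array lay above every control array, while the tamoxifen arrays overlapped the controls. MVD rose 1.78-fold with estradiol (log2 difference 0.83, SE 0.15, adjusted p = 0.00128) and 1.40-fold with the combination (0.48, adjusted p = 0.0419). The combination's call did not survive the loss of any single array, with adjusted p up to 0.101 and differences of 0.44 to 0.52. With tamoxifen the difference was 0.25 (95% confidence interval -0.075 to 0.57, adjusted p = 0.30). The gene's other tested probe set gave 0.59 with estradiol and 0.56 with the combination, both called.

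PMVK, phosphomevalonate kinase, acts just before MVD. Its signal was 343, 455.5, 367.5 and 358 in control, 505, 434, 436 and 747 in estradiol, 552, 461.5, 480.3 and 497 in tamoxifen, and 475, 499, 429 and 516 in the combination. Control 2 lay within the estradiol arm, and the estradiol mean leaned on estradiol 4, the array low in smooth muscle markers. PMVK rose by 0.44 with estradiol (adjusted p = 0.0447), and by 0.27 with no call once estradiol 4 was left out. Its call was also lost without control 1, control 3, control 4 or estradiol 1, with adjusted p up to 0.127 over the refits. The differences with tamoxifen (0.39, adjusted p = 0.107) and with the combination (0.33, adjusted p = 0.154) were not called. MVK, mevalonate kinase, IDI1, which isomerises the isoprenoid unit, and FDPS, farnesyl diphosphate synthase, were not called in any comparison. Their differences from control lay between -0.31, for IDI1 with tamoxifen, and 0.28, for MVK with estradiol. A dimmer probe set of IDI1 read 1.19 higher with estradiol (adjusted p = 0.0452), where the brightest read 0.10.

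Squalene epoxidase, SQLE, takes the first oxygen-dependent step and is a slow point of the route. Its signal was 152, 109, 141.5 and 135 in control, 403, 244, 190 and 194 in estradiol, 182, 118, 149 and 179.9 in tamoxifen, and 184, 175, 179 and 223 in the combination. Estradiol and combination arrays all lay above the controls, with estradiol 1 well above the rest. SQLE rose 1.81-fold with estradiol (0.86, SE 0.21, adjusted p = 0.00924). The difference was 0.21 with tamoxifen (adjusted p = 0.561) and 0.49 with the combination (adjusted p = 0.136). A second probe set read 1.04 with estradiol and 0.66 with the combination, and both were called (adjusted p = 0.00266 and 0.0479). FDFT1, squalene synthase, was not called through its brightest probe set (0.27 with estradiol, adjusted p = 0.137), and a dimmer probe set read 0.38 (adjusted p = 0.0487).

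CYP51A1, lanosterol 14-alpha-demethylase, starts the conversion of lanosterol and was called higher in all 3 treated arms. Its signal was 263, 269, 193 and 232 in control, 799, 675, 398.5 and 525 in estradiol, 464, 372.5, 506 and 303 in tamoxifen, and 427, 422, 547.5 and 386 in the combination. Every treated array lay above every control array, and the highest values were in estradiol 1 and 2. CYP51A1 rose 2.42-fold with estradiol (1.27, SE 0.21, adjusted p = 0.000631), 1.69-fold with tamoxifen (0.75, SE 0.21, adjusted p = 0.0262) and 1.84-fold with the combination (0.88, SE 0.21, adjusted p = 0.0106). The tamoxifen call was lost without control 3, control 4, tamoxifen 1 or tamoxifen 3, with differences between 0.65 and 0.89 and adjusted p up to 0.076. A second probe set read 0.79, 0.52 and 0.67 in the same order, with the first and the last called.

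**Figure D2:**
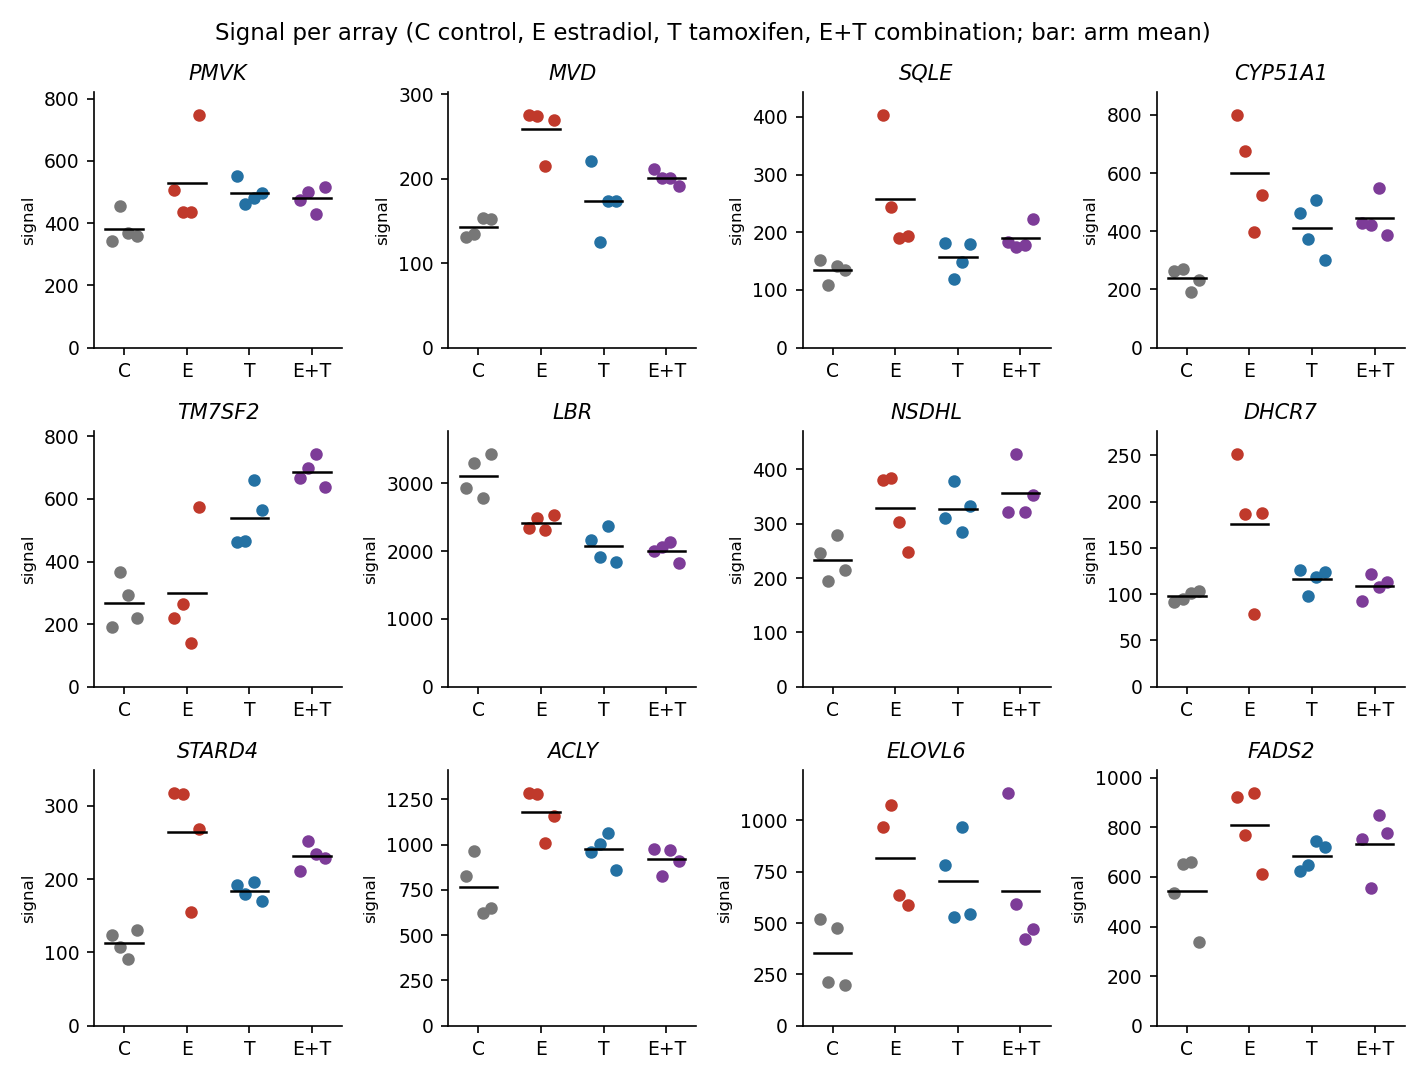
MAS5 signal (vertical axes from 0, arbitrary units) of the 12 genes called in any comparison, grouped by arm, with each point an animal and the black bar the mean of 4. CYP51A1 and STARD4 were higher on every treated array than on any control array, LBR was lower on every treated array, and TM7SF2 separated the 2 arms given tamoxifen from the controls.

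The next step, reduction of the C14 double bond, can be carried out by either of 2 proteins, TM7SF2 or LBR. LBR is also the lamin B receptor of the inner nuclear membrane, where it binds chromatin. TM7SF2 signal was 192, 368, 292 and 221 in control, 219, 264, 141 and 573 in estradiol, 461, 466, 661 and 563 in tamoxifen, and 668, 700.1, 743 and 637 in the combination. The tamoxifen and combination arrays all lay above the controls. Estradiol 1 and 2 lay among the controls, estradiol 3 lay below them and estradiol 4 reached the tamoxifen range. TM7SF2 rose 2.03-fold with tamoxifen (1.02, SE 0.31, adjusted p = 0.0401) and 2.61-fold with the combination (adjusted p = 0.00811), and its difference with estradiol was 0.012 (95% confidence interval -0.64 to 0.67, adjusted p = 0.984). The last value had no settled sign: it was -0.36 without estradiol 4 and 0.30 without estradiol 3, and was not called in either refit. The tamoxifen call held only without control 2 among the 8 refits that leave out an array, with differences from 0.88 to 1.19 and adjusted p up to 0.108. It was also lost without the filter on dim probe sets (adjusted p = 0.0564). A second probe set read -0.28 with estradiol, 1.14 with tamoxifen (adjusted p = 0.0522) and 1.54 with the combination (adjusted p = 0.0117).

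LBR moved the other way. Its signal was 2923, 3300, 2777 and 3427 in control, 2341, 2489, 2304 and 2528 in estradiol, 2169, 1906, 2364 and 1844 in tamoxifen, and 2004, 2052, 2127 and 1825 in the combination. All 12 treated arrays lay below all 4 controls, and the combination arrays lay below all estradiol arrays. LBR was 1.28-fold lower with estradiol (-0.36, SE 0.094, adjusted p = 0.0117), 1.5-fold lower with tamoxifen (-0.59, adjusted p = 0.00159) and 1.55-fold lower with the combination (-0.63, adjusted p = 0.000738). The range of the difference when single arrays were left out was -0.41 to -0.31, -0.65 to -0.53 and -0.68 to -0.58, in the same order. Thus in the tamoxifen and combination arms the RNA of the C14 reductases changed in opposite directions.

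NSDHL, which removes the C4 methyl groups together with other enzymes, had signals of 245, 195, 278.5 and 214 in control, 380.1, 385, 303 and 248 in estradiol, 309.7, 379, 284 and 333 in tamoxifen, and 321, 428, 322 and 353 in the combination. All tamoxifen and combination arrays lay above the controls, while estradiol 4 fell among them. The gene rose by 0.48 with estradiol (SE 0.16, adjusted p = 0.0400) and by 0.60 with the combination (SE 0.16, adjusted p = 0.0204). With tamoxifen it read 0.48 with adjusted p = 0.0594. The estradiol call was lost without control 1, 2 or 4 or estradiol 1 or 2 (0.40 to 0.60, adjusted p up to 0.121), and the combination call without control 2 or combination 2 (0.51 to 0.69, adjusted p up to 0.0673). A second probe set was called in all 3 arms, at 0.79, 0.76 and 0.76 (adjusted p = 0.00086, 0.00282 and 0.00205). HSD17B7, a partner of NSDHL at C4, was not called, with differences from control between -0.14 and -0.016.

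EBP, the sterol isomerase known to bind tamoxifen, was called in no comparison. Its signal was 313, 358, 309 and 312 in control, 587, 436, 312 and 490.5 in estradiol, 524, 283, 421.5 and 323 in tamoxifen, and 335.5, 465, 384 and 395 in the combination. Each treated arm overlapped the controls, through estradiol 3, through tamoxifen 2 and 4, and through combination 1. The difference was 0.46 with estradiol (95% confidence interval 0.039 to 0.88, adjusted p = 0.101), 0.22 with tamoxifen (-0.20 to 0.64, adjusted p = 0.492) and 0.28 with the combination (-0.14 to 0.70, adjusted p = 0.365). The estradiol difference was called once array weights were used (0.54, adjusted p = 0.0446). The tamoxifen difference was 0.065 without tamoxifen 1 and 0.36 without tamoxifen 2. A second probe set read 0.043, -0.12 and 0.076.

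DHCR7, the last reductase of the route and another enzyme that tamoxifen is reported to inhibit, had signals of 91.6, 94.6, 101 and 103 in control, 251, 187, 78.4 and 188 in estradiol, 126, 98.2, 118.5 and 123.5 in tamoxifen, and 92.9, 121, 107.6 and 113.6 in the combination. Of the estradiol arrays, 3 lay above all controls and estradiol 3 lay below them all. The gene rose by 0.71 with estradiol (SE 0.25, adjusted p = 0.0483), a call that held only without estradiol 3 among the 8 refits that leave out an array (0.51 to 1.05, adjusted p up to 0.158). The differences were 0.24 with tamoxifen (95% confidence interval -0.29 to 0.77, adjusted p = 0.565) and 0.15 with the combination (-0.39 to 0.68, adjusted p = 0.741). In all, 2 of 7 late-step genes rose and 1 fell with tamoxifen, and 3 rose and 1 fell with the combination, where 8.59% and 10.6% of all genes rose and 7.64% and 9.09% fell. EBP and DHCR7 were not among them, and neither rise with tamoxifen was called without tamoxifen 1 or tamoxifen 3.

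STARD4 carries cholesterol between membranes and is a known target of SREBP-2. Its signal was 124, 108, 90.8 and 129.9 in control, 317, 317, 155 and 268 in estradiol, 191, 179, 195 and 170.1 in tamoxifen, and 211, 252, 234 and 229 in the combination. Every treated array lay above every control, and every combination array lay above every tamoxifen array. STARD4 rose 2.22-fold with estradiol (1.15, SE 0.19, adjusted p = 0.000725), 1.61-fold with tamoxifen (0.69, SE 0.19, adjusted p = 0.0275) and 2.02-fold with the combination (1.01, SE 0.19, adjusted p = 0.00311). The tamoxifen call was lost without control 2, control 3, tamoxifen 1 or tamoxifen 3 (0.59 to 0.76, adjusted p up to 0.075).

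None of the 5 regulators was called in any of the 7 comparisons by limma. These are SREBF1 and SREBF2, which encode the SREBP proteins, SCAP, and the retention factors INSIG1 and INSIG2. SREBF1 came nearest, at 0.47 with estradiol (adjusted p = 0.0934), with signals of 586 ± 143 (SD, n = 4) in control and 810.0 ± 178.5 in estradiol. SREBF2 read 0.19, 0.23 and 0.22 higher in the estradiol, tamoxifen and combination arms, with a lowest adjusted p of 0.366. INSIG1, itself a well known SREBP target, read 0.13, -0.19 and -0.12, with a mean signal of 438 ± 42 in control and 493 ± 149 in estradiol. Its second probe set read 0.31, 0.13 and 0.11, so that the sign with tamoxifen and with the combination depended on the probe set. INSIG2 read -0.34 with estradiol (adjusted p = 0.0989), while its second probe set read 0.23 (adjusted p = 0.535), in the opposite direction. At an unadjusted p under 0.05, SREBF1 and INSIG2 passed in estradiol against control, and none of the 5 passed in the other 6 comparisons.

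**Figure D3:**
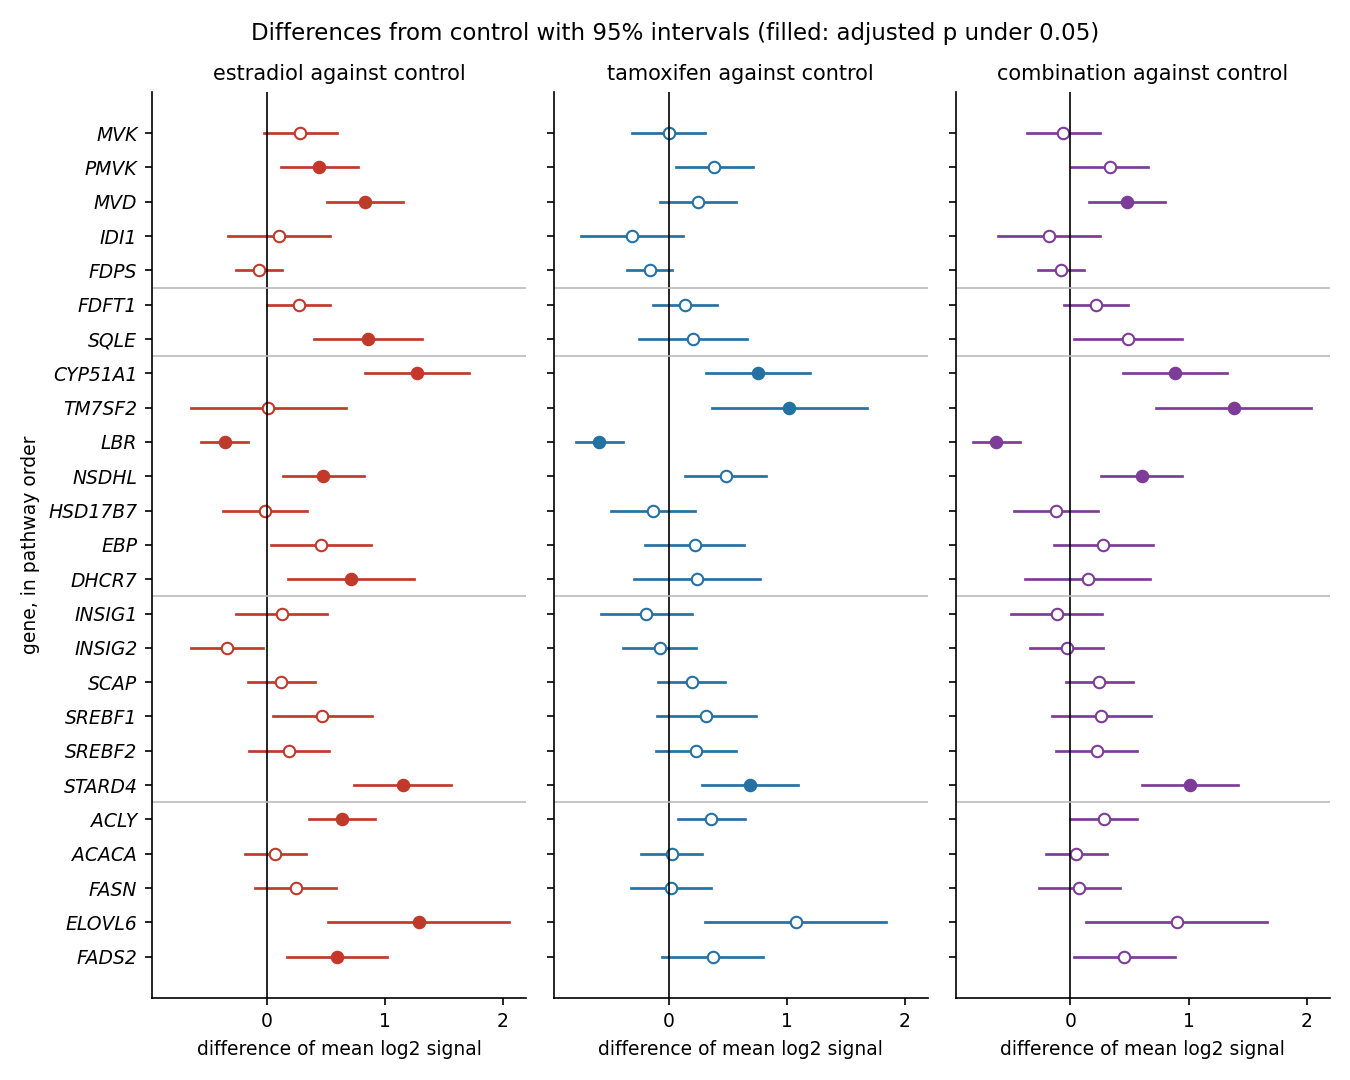
Log2 difference from control (horizontal axis) of each of the 25 genes (rows, in pathway order) with its 95% confidence interval, for the estradiol, tamoxifen and combination arms, filled where limma called it. The estradiol arm holds 11 called genes, the tamoxifen arm 4 and the combination arm 6, and the 5 regulators have none.

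Of the fatty acid genes, 3 of 5 rose with estradiol, where 16.5% of all genes did. None was called with tamoxifen or the combination, where 8.59% and 10.6% of all genes rose and limma gave 2 of 5 at an unadjusted p under 0.05 in each. ACLY, ATP citrate lyase, supplies acetyl-CoA to both routes. Its signal was 826.5, 962, 624 and 651 in control, 1283, 1279, 1006 and 1157 in estradiol, 961, 1005, 1064 and 861 in tamoxifen, and 974, 824.5, 969.7 and 907 in the combination. All estradiol arrays lay above all control and all combination arrays. ACLY rose 1.56-fold with estradiol (0.64, SE 0.13, adjusted p = 0.00299), and read 0.36 with tamoxifen (adjusted p = 0.0826) and 0.28 with the combination (adjusted p = 0.166). One of its other probe sets was called in the combination arm (0.49, adjusted p = 0.0388) and another was not called with estradiol (0.42, adjusted p = 0.0543).

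ELOVL6 lengthens palmitate to stearate. Its signal was 521, 213, 478 and 199.6 in control, 967, 1075, 638 and 588.5 in estradiol, 780.3, 528, 969 and 544 in tamoxifen, and 1132, 594, 421 and 469 in the combination. The estradiol and tamoxifen arrays lay above the controls, which themselves fell into a higher pair, control 1 and 3, and a lower pair. ELOVL6 rose 2.44-fold with estradiol (1.29, SE 0.36, adjusted p = 0.0168), a call lost without control 4 or estradiol 2 (1.06 to 1.52, adjusted p up to 0.0551). It read 1.08 with tamoxifen (adjusted p = 0.0599) and 0.90 with the combination (adjusted p = 0.103). Of its 3 other tested probe sets, 1 was called in all 3 arms, at 1.60, 1.27 and 1.13 (adjusted p = 0.00116, 0.0103 and 0.0158). Another was called with estradiol alone (1.21, adjusted p = 0.00934), and the last in no arm (0.78 with estradiol, adjusted p = 0.0988). Whether ELOVL6 is called thus depended on the probe set in every arm.

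FADS2, the first desaturase in the making of long polyunsaturated fatty acids, had signals of 534, 652, 659.8 and 336 in control, 924, 769, 938 and 611 in estradiol, 626, 649, 747 and 719 in tamoxifen, and 753, 557, 849.6 and 777 in the combination. Estradiol 4 fell among the controls, and control 4 was lower than any other array. FADS2 rose by 0.59 with estradiol (SE 0.20, adjusted p = 0.0397), but by only 0.38 and with no call without control 4. The call was also lost without control 1 or estradiol 1, 2 or 3 (adjusted p up to 0.116). ACACA, acetyl-CoA carboxylase, and FASN, fatty acid synthase, the core of the route, were called in no comparison. ACACA read 0.071, 0.026 and 0.048 with the 3 treatments, and FASN read 0.24, 0.019 and 0.074, with mean signals of 216 ± 50.4 in control and 254 ± 43.7 in estradiol.

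Set against estradiol alone, the combination differed in TM7SF2 alone, which was 2.59-fold higher (1.37, SE 0.31, adjusted p = 0.0432). In this comparison 0.448% of all genes were higher and 0.878% lower. The call was lost in 6 of 8 refits that leave out an array, holding only without estradiol 3 or estradiol 4 (1.08 to 1.74, adjusted p up to 0.15). The second TM7SF2 probe set read 1.82 (adjusted p = 0.0319). No member was called lower by limma, though 5 passed an unadjusted p under 0.05, and 1 was called lower without estradiol 3. Of the 25 differences 20 were below 0, with a median of -0.17 against -0.023 for all genes. MVD, LBR and ACLY were lower on every combination array than on any estradiol array, and TM7SF2 and INSIG2 were higher. These are 3 and 2 members, where 6.38% and 4.06% of all genes did so. The second probe set of INSIG2 read -0.087, opposite to the 0.31 of the brightest. That of MVD read -0.036, where the brightest read -0.35, and the other probe sets of ACLY read -0.27 and -0.28. The SQLE, CYP51A1 and DHCR7 differences were -0.37, -0.39 and -0.57, with 95% confidence intervals of -0.82 to 0.090, -0.83 to 0.053 and -1.10 to -0.034.

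Tamoxifen against estradiol gave no call among the members, where limma called 0.149% of all genes higher and 0.56% lower and 6 members passed an unadjusted p under 0.05. The median was -0.22 against -0.027 for all genes. Arrays did not overlap for INSIG2, higher with tamoxifen, and SQLE, lower, where 2.57% and 4.55% of all genes did so. The second probe set of INSIG2 read -0.21, opposite to the 0.26 of the brightest, and that of SQLE read -0.56. TM7SF2 read 1.01 (95% confidence interval 0.35 to 1.66, adjusted p = 0.166), MVD -0.58 (-0.90 to -0.26, adjusted p = 0.103) and SQLE -0.65 (-1.10 to -0.19, adjusted p = 0.202). Without estradiol 3 the count of lower members was 3, and without tamoxifen 1 it was 1. The combination and tamoxifen arms gave no call either by limma, for any of the 10705 genes (0% higher and 0% lower). There 0 of 25 members and 396 of all genes passed an unadjusted p under 0.05. STARD4, at 0.32 (95% confidence interval -0.084 to 0.73), was the 1 member whose arrays did not overlap, higher with the combination, where 1.24% of all genes were so and 1.68% were lower.

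The interaction asks whether estradiol's difference is the same with and without tamoxifen. It is the difference of combination from tamoxifen minus that of estradiol from control. Limma called it below 0 for CYP51A1 and ACLY, 2 of 25 members, where 4.77% of all genes were called above 0 and 6.55% below. For CYP51A1 estradiol added 1.27 over placebo and 0.13 over tamoxifen (interaction -1.14, SE 0.29, adjusted p = 0.0253). For ACLY the values were 0.64 and -0.081 (interaction -0.72, SE 0.19, adjusted p = 0.0269). Both calls depended on single arrays: the count of members called was 0 without estradiol 1, estradiol 2 or tamoxifen 3, 1 without control 4, tamoxifen 1, combination 2 or combination 4, 3 without tamoxifen 2 or combination 1, and 5 without estradiol 3. It was also 0 without both arrays low in smooth muscle markers, estradiol 4 and tamoxifen 1. STARD4 (-0.83, adjusted p = 0.0663), ELOVL6 (-1.46, adjusted p = 0.0818) and MVD (-0.60, adjusted p = 0.0899) came next. Among other probe sets, 1 of 3 of ELOVL6 was called (-1.74, adjusted p = 0.0165), while the rest were not (-1.40, adjusted p = 0.0524, and -0.95, adjusted p = 0.221), and the second of NSDHL was called (-0.78, adjusted p = 0.0208). For the called members, the second probe set of CYP51A1 was not called (-0.64, adjusted p = 0.206), nor was either other probe set of ACLY (-0.54, adjusted p = 0.121, and -0.66, adjusted p = 0.0657). The member median was -0.34, against -0.014 for all genes.

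**Figure D4:**
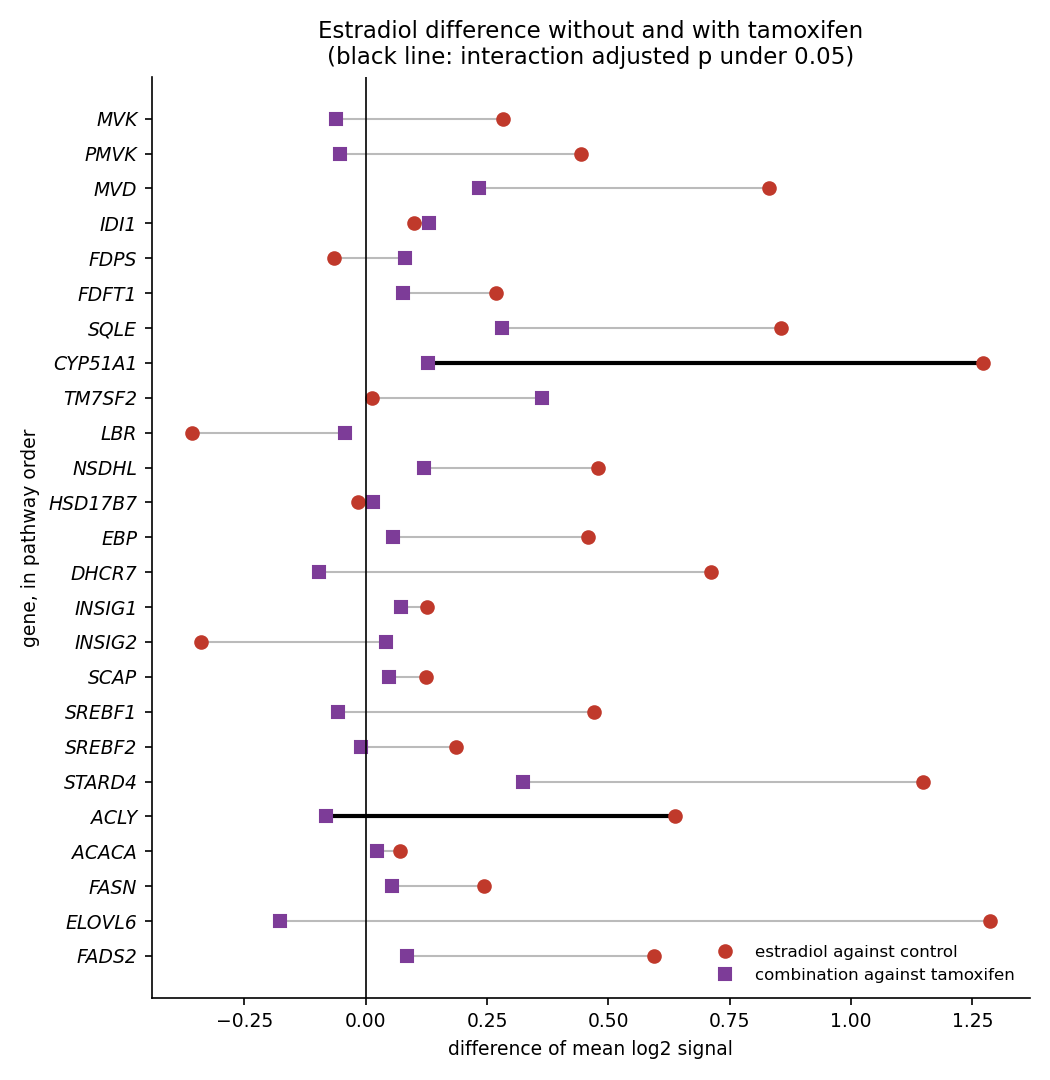
Log2 difference (horizontal axis) of estradiol from control (circles) and of combination from tamoxifen (squares) for each of the 25 genes (rows, in pathway order), joined by a line that is black where limma called the interaction. The black lines are those of CYP51A1, with its circle at 1.27 and its square at 0.13, and ACLY, at 0.64 and -0.081.

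Markers of cell types moved with treatment beside these genes. The mean centred log2 value of 7 dividing-cell markers was -0.73 ± 0.16 (SD, n = 4) in control, 1.31 ± 0.62 in estradiol, -0.40 ± 0.76 in tamoxifen and -0.18 ± 0.29 in the combination, and 7 of 7 were called higher with estradiol. With tamoxifen and with the combination limma called 0 of 7, and 0 and 1 passed an unadjusted p under 0.05. The same mean over the 14 sterol synthesis members was -0.25 to -0.13 in control, 0.26 to 0.34 in estradiol 1, 2 and 4, and -0.19 in estradiol 3. Estradiol 3 was the lowest of its arm for dividing-cell markers and for epithelial markers, at -0.25 for the latter. It was the highest of its arm for smooth muscle markers, at 0.32. The sterol synthesis mean was -0.15 to 0.055 in the tamoxifen arm, and -0.00036 to 0.10 in the combination arm, above every control array. In tamoxifen 1 to 4 this mean was 0.045, -0.15, 0.055 and -0.060. The same arrays had 0.27, -1.10, -1.03 and 0.25 for dividing-cell markers. For 10 epithelial markers the mean was -0.78 ± 0.052 in control and 0.28 ± 0.54, 0.20 ± 0.61 and 0.29 ± 0.20 in the 3 treated arms, with 6, 4 and 6 called higher. Among all genes 16.5%, 8.59% and 10.6% rose and 13.2%, 7.64% and 9.09% fell in these arms, so 1 marker called of 9 (11.1%) or of 8 (12.5%) is near these shares. Stromal markers were called higher in 7, 4 and 4 of 11. Another 3 stromal markers lay below 0 in each arm, and 2, 1 and 1 were lower at an unadjusted p under 0.05 by limma. Endothelial markers were called lower in 5, 1 and 1 of 9, and T and NK cell markers lower in 0, 2 and 3 of 5, the first with 1 at an unadjusted p under 0.05. Macrophage markers were called lower in 0, 0 and 1 of 8 (1, 1 and 1 at an unadjusted p under 0.05), and smooth muscle markers lower in 1, 0 and 0 of 9 (2, 0 and 0). Ciliated-cell markers were called in 0 of 6 in each arm, where 0, 3 and 3 passed an unadjusted p under 0.05. Adipocyte markers, of a cell type rich in fatty acid synthesis, were called higher in 1, 2 and 1 of 6 and lower in 1, 0 and 0. Limma called 3 of 7 dividing-cell and 1 of 11 stromal markers lower, and 1 of 6 adipocyte markers higher, in combination against estradiol. There 0.878% of all genes were lower and 0.448% higher. The interaction was called below 0 for 7 of 11 stromal, 2 of 7 dividing-cell, 1 of 10 epithelial and 1 of 6 adipocyte markers. It was called above 0 for 2 of 9 endothelial markers. Of all genes, 6.55% were called below 0 and 4.77% above. The part of these shifts, and of the actin ratio, in the changes of the synthesis genes was not tested.

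**Figure D5:**
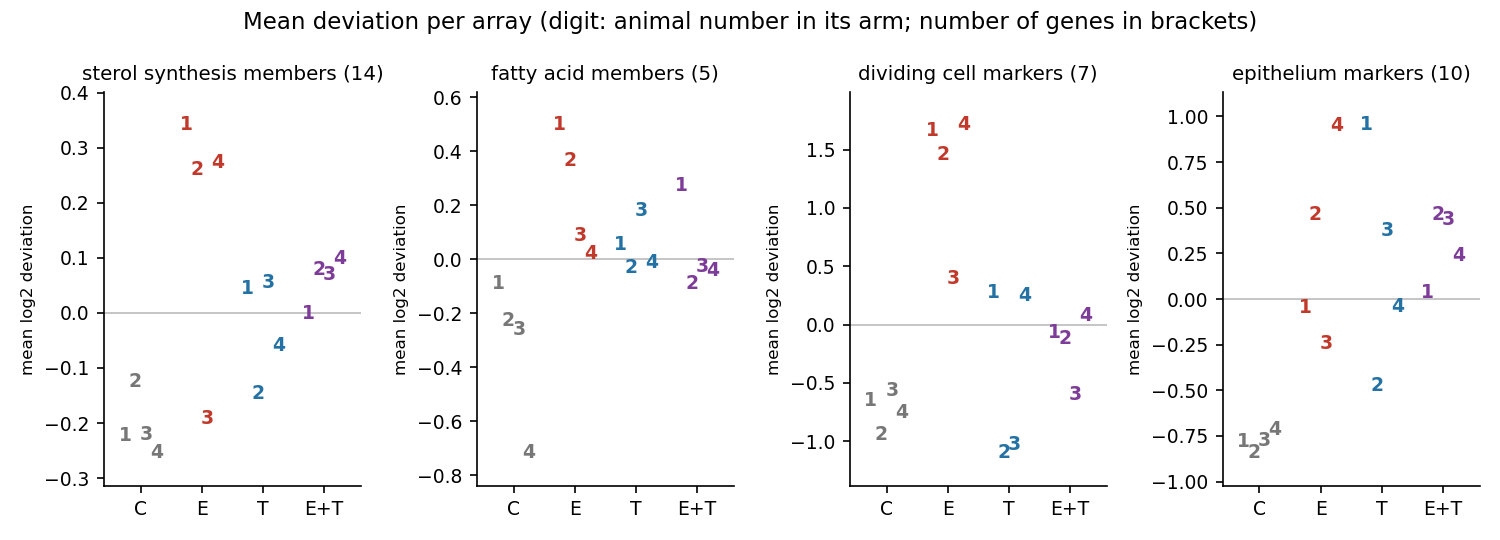
Mean centred log2 value per array (vertical axis) for the 14 sterol synthesis and 5 fatty acid members and for dividing-cell and epithelial markers, by arm, with each digit the animal's number in its arm. Estradiol 3 lies below the rest of its arm for the 14 sterol synthesis members, at -0.19, for the dividing-cell markers, at 0.39, and for the epithelial markers, at -0.25. Tamoxifen 1 to 4 lie at 0.045, -0.15, 0.055 and -0.060 for the sterol synthesis members. For the dividing-cell markers they lie at 0.27, -1.10, -1.03 and 0.25.

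Counts of further genes of the same pathways, outside the members, are read against the shares of all genes, which were 16.5% higher and 13.2% lower with estradiol, 8.59% and 7.64% with tamoxifen, and 10.6% and 9.09% with the combination. Of 5 other sterol synthesis genes tested, 3 rose and 1 fell with estradiol, 2 rose with tamoxifen and 2 with the combination. EBPL, a relative of EBP, rose by 0.69 with estradiol (adjusted p = 0.00631) and by 0.69 with tamoxifen (adjusted p = 0.0125). POR, the reductase that feeds electrons to CYP51A1 and SQLE, rose by 0.68 with tamoxifen (adjusted p = 0.0193) and by 0.66 with the combination (adjusted p = 0.0190). It was also among the 3 that rose with estradiol, by 0.53. TMEM97, a sterol-binding membrane protein, rose by 0.35 with the combination (adjusted p = 0.0482), and FAXDC2 fell by 0.42 with estradiol (adjusted p = 0.0136). EBPL was not among the 2 called with the combination. Limma called the interaction below 0 for EBPL (-0.89, adjusted p = 0.0252) and above 0 for FAXDC2 (0.58, adjusted p = 0.0323). Of all genes, 6.55% were called below 0 and 4.77% above.

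Of 12 genes of sterol uptake, storage and efflux, 1 rose and 2 fell with estradiol, 1 rose and 2 fell with tamoxifen, and 1 rose with the combination. Their shares were 8.33% higher in each arm and 16.7%, 16.7% and 0% lower, so that the genes did not rise more often than all genes in any arm. With estradiol NPC1, which exports cholesterol from lysosomes, fell by 0.57 (adjusted p = 0.0129), and MYLIP, a ligase that marks lipoprotein receptors for destruction, fell by 0.66 (adjusted p = 0.0260). VLDLR, a lipoprotein receptor, rose by 0.85 with tamoxifen (adjusted p = 0.0322) and by 0.78 with the combination (adjusted p = 0.0412). It was also the 1 gene of the list that rose with estradiol, by 0.73. STARD5, a sterol carrier, fell by 0.74 with tamoxifen (adjusted p = 0.0350).

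Of 9 genes of SREBP processing and its control, 2 rose with estradiol, 1 fell with tamoxifen and 2 fell with the combination. SEC24D and SEC23A, coat proteins of the vesicles that leave the endoplasmic reticulum, rose by 0.84 (adjusted p = 0.000409) and 0.53 (adjusted p = 0.00495) with estradiol. SEC24D was lower in the combination arm (-0.89, adjusted p = 0.00568) and in the tamoxifen arm (-0.82, adjusted p = 0.0247) than in the estradiol arm, with an interaction of -0.92 (adjusted p = 0.00788). The interaction of SEC23A was -0.56 (adjusted p = 0.0465). MID1IP1, an activator of acetyl-CoA carboxylase, fell by 0.58 with tamoxifen (adjusted p = 0.0248) and 0.70 with the combination (adjusted p = 0.00865). MBTPS2, the protease of the second SREBP cleavage, fell by 0.32 with the combination (adjusted p = 0.0280).

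Of 16 other fatty acid synthesis genes, 5 rose and 3 fell with estradiol, 4 rose and 3 fell with tamoxifen, and 5 rose and 2 fell with the combination. SCD5, a stearoyl-CoA desaturase, rose by 1.06, 1.29 and 1.29 in the same order (adjusted p = 0.00161, 0.00138 and 0.000953). MCAT, of mitochondrial fatty acid synthesis, rose by 0.53 with tamoxifen (adjusted p = 0.0113) and 0.55 with the combination (adjusted p = 0.00865). FADS3, a relative of FADS2, fell by 0.88 with estradiol (adjusted p = 0.00414). The interaction was called above 0 for 3 of the 16 and below 0 for 1, where 4.77% and 6.55% of all genes were so. Those above 0 include FADS3 (1.02, adjusted p = 0.0297) and ACACB, the mitochondrial acetyl-CoA carboxylase (1.17, adjusted p = 0.0215).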

How the data were processed

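Endometrial RNA of 16 macaques, 4 per arm, was hybridised to 1-colour rhesus arrays, and arrays were matched to arms by the sample titles. The deposited values are linear intensity values, 1 per probe set, made with MAS5, Affymetrix Expression Console and GCOS, per the submitters' processing notes. Their mean after trimming 2% at each end was the same on all arrays, so they were not normalized again, and changes are relative to each array's overall brightness. The 99 control probe sets and the 40% dimmest of 52865 were left out, which left 31659. Values were taken to log2(signal + 4.81), the added value being the 10th percentile of all values, which understates changes of dim probe sets. Limma 3.58.1 under R 4.3.3 (lmFit, then eBayes with trend) estimated a mean per arm from all 16 arrays together, leaving 12 residual degrees of freedom for 7 comparisons, and p was adjusted by Benjamini-Hochberg over all probe sets. The procedure was tested on simulated data.

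Symbols came from the platform annotation, where 24956 probe sets carry 1 symbol, 361 carry several and 27449 carry none. Only single-symbol probe sets were named, and 16 of the 25 members have another tested probe set. Per-array signals are given for each member called in any comparison, and for EBP and DHCR7. From each of 8 further pathway lists at most the 2 genes of smallest adjusted p in a comparison are named, and VLDLR and POR also for estradiol. A gene named for some comparisons may therefore be called in others too. The members, the 9 marker lists and the other lists were chosen with earlier results of these data known. Present or absent calls and sequences were not used here. The alternatives tried were other pseudocounts, no filter, quantile normalization, array weights, fits on the compared arms only, the mean over probe sets, a replicate block, and arrays left out.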

Additional observations from a re-analysis of the deposited data

Results flagged for a closer look

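MVD in estradiol 3 had a signal of 216, against 269 to 275 on the other 3 estradiol arrays, a gap larger than Dixon's criterion allows for 4 values. EBP in control 2 had a signal of 358, against 309 to 313 on the other 3 control arrays. These were 2 of 100 groups examined, and chance alone gives about 1 in 20. Limma called the difference between estradiol's effects with and without tamoxifen for CYP51A1 (interaction -1.14) and ACLY (interaction -0.72). These are 2 of 25 members, where 6.55% of all genes were called below 0. Each call was lost in 5 of 16 refits that leave out an array, and no other probe set of either gene was called.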

How the results depend on the processing

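None of the 24 called member differences changed sign under any alternative run. Of the 151 that were not called, 41 did under at least 1, none of them over 0.13 in size. Among these TM7SF2 with estradiol, 0.012, became -0.36 without estradiol 4 and tamoxifen 1 and -0.13 with the mean of its probe sets, and ranged from -0.36 to 0.30 with single arrays left out. Of the counts of called members, the 10 raised by estradiol became 6 without the filter and 6 with only the arms compared in the fit. The 3 raised by tamoxifen became 5 with array weights, 5 with the mean of a gene's probe sets, and 1 without estradiol 4 and tamoxifen 1. The 1 raised in combination against estradiol became 0 without the filter, 0 with only the arms compared and 0 with the replicate block. For tamoxifen against estradiol, array weights gave 1 higher and 1 lower member and leaving out estradiol 4 and tamoxifen 1 gave 1 higher, in place of 0. The 2 members with an interaction below 0 became 0 without estradiol 4 and tamoxifen 1. The cause was not tested. With single arrays left out, the counts ranged from 5 to 12 higher and 1 to 2 lower (estradiol), 0 to 3 higher (tamoxifen), 3 to 4 higher (combination), 0 to 1 higher and 0 to 1 lower (combination against estradiol), 0 to 3 lower (tamoxifen against estradiol) and 0 to 5 (interaction below 0). The replicate numbers did not pair the arrays: deviations of same-numbered arrays had a median correlation of 0.0052 (24 pairs, -0.27 to 0.095), and the replicate block gave 7, 3 and 4 higher members for estradiol, tamoxifen and combination, with TM7SF2 lost (adjusted p = 0.0557) and ELOVL6 gained (adjusted p = 0.0327) among the 3. The 4 arrays per arm limit the precision.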

Other observations

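Counts of lipid genes next to these pathways are small and stand beside the shares of all genes (16.5% higher and 13.2% lower with estradiol, 8.59% and 7.64% with tamoxifen, 10.6% and 9.09% with the combination). Of 9 genes of glycerolipid synthesis and lipid droplets, 2 rose and 1 fell with estradiol, 1 rose with tamoxifen and 2 rose with the combination. LPIN2, a phosphatidate phosphatase, rose by 1.13, 0.78 and 0.84 in the same order (adjusted p = 0.000931, 0.0179 and 0.0104), and PNPLA2, the droplet lipase, rose by 0.61 with estradiol (adjusted p = 0.00153) and 0.36 with the combination (adjusted p = 0.0439). Their interactions were -1.07 (adjusted p = 0.0265) and -0.58 (adjusted p = 0.0366). Of 9 genes of fatty acid oxidation, 2 rose with estradiol, 1 rose and 1 fell with tamoxifen, and limma called none with the combination, where 3 passed an unadjusted p under 0.05. HADHB, a subunit of the trifunctional protein, rose by 0.47 with estradiol (adjusted p = 0.00564) and 0.47 with tamoxifen (adjusted p = 0.0120), with an interaction of -0.62 (adjusted p = 0.0224). ACADM, an acyl-CoA dehydrogenase, rose by 0.41 with estradiol (adjusted p = 0.0199), and DECR1 fell by 0.34 with tamoxifen (adjusted p = 0.0336).

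Of 12 genes of other isoprenoid branches, 1 fell with estradiol, 1 fell with tamoxifen, and 1 rose and 1 fell with the combination. FNTA, the shared subunit of the prenyltransferases, fell by 0.32, 0.27 and 0.33 in the same order (adjusted p = 0.00676, 0.0319 and 0.00954), and DHDDS, of dolichol synthesis, rose by 0.37 with the combination (adjusted p = 0.0355). Of 2 oxysterol enzymes tested, limma called none with estradiol or tamoxifen, and none passed an unadjusted p under 0.05 there. CH25H, cholesterol 25-hydroxylase, fell by 0.91 with the combination (adjusted p = 0.0317).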
